A study of Mus musculus with 6 samples.

Results

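Voltage-gated calcium and sodium channels were described in pancreatic islets, the hormone-secreting part of the pancreas, of mice with a beta-cell-specific miR-203 transgene (TG) and of wild-type mice (WT). The genes were the protein-coding genes of the annotated tables whose symbols begin with Cacna, Cacnb or Cacng, or with Scn and a digit. This gave 38 of 17668 protein-coding genes, of which 24 encode calcium channel subunits and 14 encode sodium channel subunits. Another 2 genes of these families, Cacna1s and Cacng6, had 0 counts in all 6 libraries and were not among the 38. RNA was sequenced from islets of 3 TG and 3 WT mouse samples, all labelled male, at 10 weeks of age and after a 12 h fast. The labels name no promoter for the transgene, and since the RNA came from whole islets, every endocrine and non-endocrine cell type of the islet contributed to it. Replicates 1 and 2 of both genotypes were deposited in a first table and replicate 3 of both in a second. Whether each library is a separate animal is not stated, so the p-values rest on the spread between libraries, part of which may be technical.

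A voltage-gated calcium or sodium channel is built around a large alpha subunit that forms the pore and senses the membrane voltage. Smaller partners set where and how the pore works: beta and alpha2delta subunits and, in some tissues, gamma subunits join calcium channels, and membrane-spanning beta subunits join sodium channels. In a beta cell, glucose metabolism closes potassium channels, the membrane depolarizes, L-type and other calcium channels open, and the calcium that enters triggers the release of insulin. Sodium channels add to the upstroke of the action potential, and in mouse islets Scn3a and Scn9a are the best known of them.

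The libraries held 21615905 to 27482339 counts in TG and 20176456 to 24631199 in WT. Mir203, the gene of the transgene's microRNA, had 170, 164 and 150 counts in the TG libraries, against 39, 0 and 0 counts in the WT libraries, so the library labelled WT 1 goes against its label in part. Without that library, as with all 6, the edgeR test called 0 channel genes. Xist, which is transcribed in female cells, had 27240 counts in TG 3 and 25145 in WT 3, but 4 to 13 counts in each of the other 4 libraries, so the second table goes against the label male in both genotypes. Fits of the first table alone also called 0 channel genes. Since the fit of all 6 libraries already called 0 and these fits hold fewer libraries, such counts cannot show whether the labels matter. The summed level of 11 beta-cell markers was 56476.7, 224455.6 and 54813.6 CPM (counts scaled to library size) in the TG libraries, against 238512.2, 230902.0 and 117311.3 CPM in the WT libraries. Ins1, Ins2 and Iapp make up most of this sum, which was lower in each TG library than in WT of the same table, least so in TG 2. Single markers did not all follow the sum. Iapp had 55879.2 CPM in TG 2, against 54650.8 and 36019.5 CPM in the first-table WT libraries. Nkx6-1 had 708.7 CPM in TG 3, against 432.2 CPM in WT 3. Of the 11 markers, 1 had a fitted log2 fold change above 0. The beta-cell markers Mafa and Ucn3 were low in TG 1 and TG 3. Mafa, a transcription factor of mature beta cells, had 3.72, 249.3 and 18.1 CPM in the TG libraries, against 405.9, 486.9 and 675.0 CPM in the WT libraries. Ucn3, a hormone of mature beta cells, had 3.03, 139.0 and 4.73 CPM in the TG libraries, against 215.3, 270.7 and 380.1 CPM in the WT libraries.

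The transgene's mature microRNA is mmu-miR-203-3p (RefSeq, GRCm38.p6, chr12:112130927-112130948, plus strand). It is shown 5′ to 3′ with its seed, bases 2 to 8, in capitals, since the seed sets which messages a microRNA can pair with.
mmu-miR-203-3p: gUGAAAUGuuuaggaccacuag

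Letters that pair with this seed (CATTTCA on the sense strand only, with CATTTCAA counted within it as the longer form) were looked for in the longest 3′ UTR of each gene in the GENCODE annotation of GRCm38. The UTR that islet cells use is not known from these files. A match stood in 10 of the 38 channel genes (26.3%) and in 9 of the 30 that entered the test (30%), against 2380 of the 13834 tested genes with a 3′ UTR (17.2%). The 3′ UTRs of the 30 tested channel genes were also longer, with a median of 2202 bases against 1167 bases over all tested genes. They held 0.17 matches per kilobase against 0.132. Over all 38 channel genes, the median was 2118 bases, with 0.158 matches per kilobase. Scn3a had 3 matches, Cacna2d1 and Cacnb4 had 2 each, and Cacna1c, Cacna1e, Cacna2d4, Cacng7, Scn1a, Scn2a1 and Scn9a had 1 each. Sites are printed for the 5 of these genes with an unadjusted p under 0.05 between TG and WT in edgeR. The seed match is in capitals, on the sense strand of each gene.
Scn3a, chr2:65457295-65457302, minus strand: atgcctctgactgaCATTTCAA
Scn3a, chr2:65458163-65458169, minus strand: taccactgactgacCATTTCA
Scn3a, chr2:65458069-65458075, minus strand: ggacactcatgcttCATTTCA
Scn9a, chr2:66480845-66480851, minus strand: aaaagcttacacccCATTTCA
Cacna2d4, chr6:119352016-119352022, plus strand: agctgaagagaaggCATTTCA
Cacna1c, chr6:118589416-118589422, minus strand: atcccctccttgagCATTTCA
Cacnb4, chr2:52430506-52430513, minus strand: aaacctcatatcaaCATTTCAA
Cacnb4, chr2:52431397-52431403, minus strand: acaaatcactacatCATTTCA
These 5 genes, picked by p, lay on both sides. Scn3a and Cacna2d4 had fitted levels above WT in TG islets, and Scn9a, Cacna1c and Cacnb4 had fitted levels below WT. The other genes with a match differed less, with a log2 fold change of 0.18 for Cacna2d1, 0.07 for Cacng7, 0.02 for Cacna1e and -0.10 for Scn2a1. Scn1a was not tested. A match is a stretch of letters and was not tested as a site.

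The comparison of TG with WT islets asked which channel genes differ with the transgene. In edgeR's quasi-likelihood test with Benjamini-Hochberg adjustment, 0 of the 30 channel genes that passed the filter on low counts had an adjusted p under 0.05, as did 0 of all 16072 tested genes (0% called), and the smallest adjusted p over all genes was 0.199. At an unadjusted p under 0.05, 8 channel genes (26.7%) were higher in TG, beside 9.32% of all tested genes. These were Scn3a, Scn3b, Scn4a, Scn7a, Cacna2d4, Cacnb1, Cacnb3 and Cacng3. At the same p, 4 channel genes (13.3%) were lower in TG, beside 4.81% of all tested genes, namely Scn9a, Cacna1c, Cacna1d and Cacnb4. DESeq2, run on the same counts, called 5 channel genes higher in TG at an adjusted p under 0.05 (16.7%, beside 3.83% of all tested genes) and 0 lower (beside 0.846%), and limma-voom called 0 (beside 0%). The 5 genes were Scn3a, Scn3b, Cacna2d4, Cacnb1 and Cacng3. At an unadjusted p under 0.05, DESeq2 gave 9 higher (beside 10.2%) and 4 lower (beside 4.64%), and limma-voom gave 6 higher (beside 8.48%) and 5 lower (beside 5.43%). Without the filter on low counts, edgeR called 9 of the 38 higher (beside 4.37% of 29725 genes) and 0 lower (beside 1.25%). Without TG 2, edgeR called 8 channel genes higher (beside 8.82% of the genes tested in that fit) and 1 lower, Scn9a (beside 4.39%), and the 8 were the same genes that had an unadjusted p under 0.05 with all libraries. Leaving out any other single library, edgeR called 0 channel genes and 0 of all tested genes. TG 2 was the TG library nearest WT in the median of the tested channel genes, so leaving it out favours a difference. Every adjusted p without TG 2 given below carries this limit. A filter on low counts favours genes that are high in 1 group. Of the 30 tested channel genes, 26 had all 3 WT libraries over the filter's minimum of 0.432 CPM, while Cacng3 had 0, Cacna1f and Scn7a had 1 and Scn4a had 2, so these 4 could enter the test more easily if higher in TG. In the other direction, Cacna1e, Cacna1f, Cacnb4 and Scn4a had 2 of 3 TG libraries over the minimum, and Cacna1e and Cacnb4 had all 3 WT libraries over it.

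**Figure D1:**
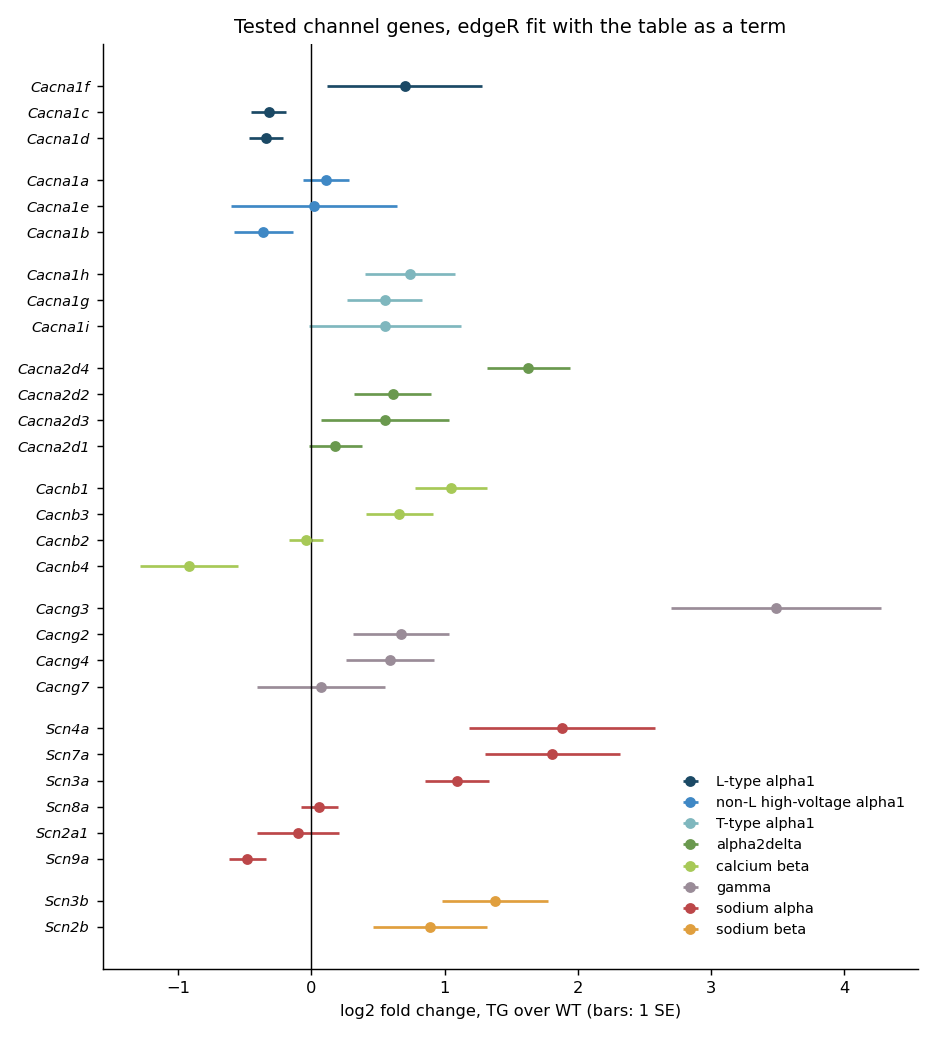
Fitted log2 fold change, TG over WT, of tested channel genes (horizontal axis), grouped by subunit class from L-type alpha1 at the top to sodium beta at the bottom; points are estimates and bars 1 SE. Cacng3 lies farthest right at 3.49 and Cacnb4 farthest left at -0.92, and the 2 abundant L-type pores Cacna1c and Cacna1d lie just left of 0.

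Among the sodium channel pores, the fitted level in TG islets was above WT for Scn3a and below WT for Scn9a. Neither passed the adjusted threshold in edgeR with all libraries. Scn3a (ENSMUSG00000057182, GRCm38 chr2:65457118-65567627, minus strand) encodes a tetrodotoxin-sensitive pore that is prominent in embryonic neurons and in mouse islet cells. It had 74.5, 49.3 and 75.8 CPM in the TG libraries, against 35.2, 35.9 and 23.9 CPM in the WT libraries. Every TG library was above every WT library, with TG 2 the closest to WT. It averaged 66.5 ± 14.9 CPM over the TG libraries and 31.7 ± 6.73 CPM over the WT libraries (SD, n = 3 each), a log2 fold change of 1.09 (SE 0.24), with an adjusted p of 0.199 in edgeR and 0.00242 in DESeq2. It was 1.16 without the library labelled WT 1, 0.80 in the first table alone and 1.32 without TG 2, where the adjusted p in edgeR was 0.00403. The same adjusted p was 0.512 without TG 1 and 0.917 without TG 3.

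Scn9a (ENSMUSG00000075316, chr2:66480080-66634962, minus strand), the pore best known from pain-sensing neurons and abundant in mouse beta cells, had 43.8, 54.3 and 23.4 CPM in the TG libraries, against 64.3, 69.6 and 33.9 CPM in the WT libraries. Both genotypes were lower in the second table, so the groups overlapped as a whole, while each TG library lay below WT within its own table. The log2 fold change was -0.48 (SE 0.14), with an adjusted p of 0.242 in edgeR and 0.109 in DESeq2. Without TG 2 it was -0.59, and the adjusted p in edgeR was 0.0226. Exons of Scn9a share 180 bases with the antisense gene Gm13629. Since no strand setting is known for the counting, reads of such pairs cannot be told apart.

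Scn8a, a pore of neuronal action potential initiation sites, had 37.4, 31.1 and 36.3 CPM in the TG libraries, against 33.1, 30.2 and 37.2 CPM in the WT libraries. The groups overlapped, and the log2 fold change was 0.06 (SE 0.14). Levels of different genes can be compared only per length, here as the deposited FPKM (fragments scaled to gene length and library size), which was scaled in each table on its own. Of the summed FPKM of the 10 sodium channel alpha genes, Scn3a took 47.5%, 37.8% and 55.7% in the TG libraries, against 27.7%, 27.4% and 26.5% in the WT libraries. Scn9a took 27.2%, 40.6% and 16.8% in the TG libraries, against 49.4%, 51.8% and 36.8% in the WT libraries. The FPKM ratio of Scn3a to Scn9a was thus 1.74, 0.93 and 3.32 in the TG libraries, against 0.561, 0.529 and 0.722 in the WT libraries. Scn9a had the highest FPKM of the class in all 3 WT libraries and in TG 2, and Scn3a had it in TG 1 and TG 3. The sum of the class was 162.2, 137.3 and 140.8 CPM in TG and 134.7, 138.2 and 97.6 CPM in WT.

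**Figure D2:**
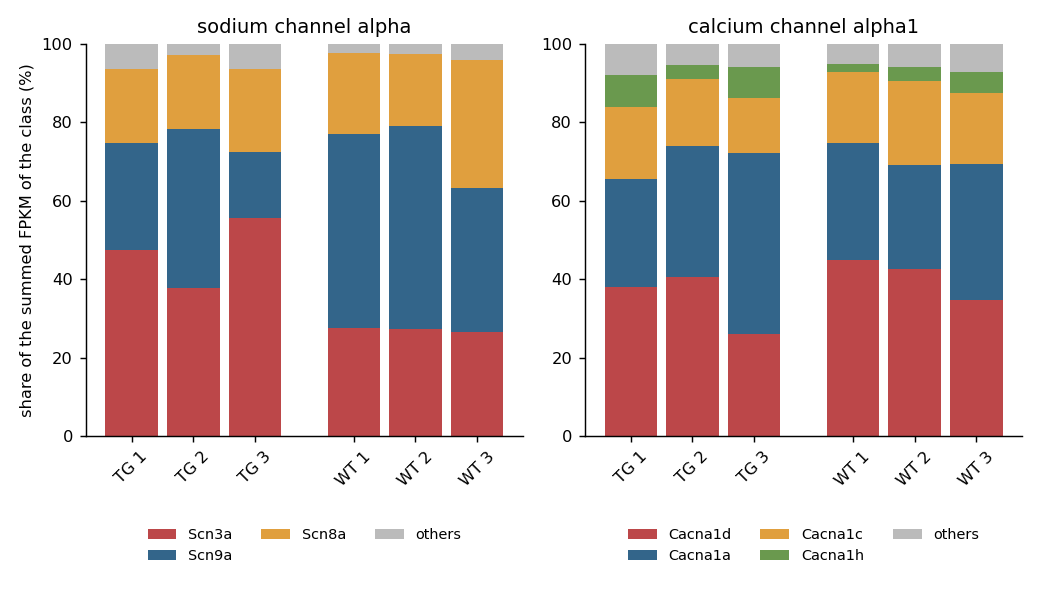
Share of the summed FPKM of a subunit class (vertical axis, percent) taken by its leading genes in each library, 3 TG bars left of 3 WT bars in each panel. The Scn3a share of the sodium alpha class is 37.8% to 55.7% in TG and 26.5% to 27.7% in WT, and the Cacna1d share of the calcium alpha1 class is 26.1% to 40.7% in TG and 34.7% to 44.9% in WT.

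The remaining sodium channel pores were low. Scn4a, the skeletal muscle pore, had 2.57, 0.397 and 2.28 CPM in the TG libraries, against 0.378, 0.572 and 0.438 CPM in the WT libraries. TG 1 and TG 3 stood above all WT libraries and TG 2 among them (log2 fold change 1.88, SE 0.70, adjusted p 0.304 in edgeR and 0.166 in DESeq2). The log2 fold change was 1.03 without TG 1 (adjusted p 0.678 in edgeR) and 2.39 without TG 2 (adjusted p 0.00945). The summed level of 8 skeletal muscle markers was 14.3, 4.25 and 4.03 CPM in TG and 3.89, 4.27 and 3.41 CPM in WT. Acta1 made up 12.1 CPM of the sum in TG 1, and Myh1 and Myh2 were at 0 counts in every library. The part of muscle cells in the Scn4a difference was not tested. Scn7a, a sodium-sensing relative of the pores that is known from glia, had 2.02, 0.794 and 0.913 CPM in the TG libraries, against 0.486, 0.264 and 0.306 CPM in the WT libraries. All TG libraries were above all WT libraries (log2 fold change 1.81, SE 0.51, adjusted p 0.238 in edgeR and 0.124 in DESeq2), and without TG 2 the adjusted p in edgeR was 0.0305. The summed level of 8 Schwann-cell markers was 29.1, 18.5 and 36.2 CPM in TG and 14.1, 13.5 and 23.5 CPM in WT, with 5 of the 6 tested markers above 0 in log2 fold change. S100b and Gfap had under 3 counts in some library, and the part of these cells in the Scn7a difference was not tested. Scn2a1, a neuronal pore, had 1.18, 0.953 and 0.996 CPM in TG and 1.03, 1.32 and 1.01 CPM in WT, and its groups overlapped. Scn1a of neurons, and Scn10a and Scn11a of pain-sensing neurons, were among the 8 untested channel genes, which had 0 to 19 counts in a library. A count of 3 corresponds to 0.104 to 0.125 CPM in a TG library and 0.131 to 0.162 CPM in a WT library.

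Of the sodium channel beta subunits, Scn3b was higher in TG islets. Scn3b (ENSMUSG00000049281, chr9:40269216-40291618, plus strand) encodes an auxiliary subunit that shifts channel gating and is known to pair with the Scn3a pore in neurons. It had 19.9, 7.3 and 15.7 CPM in the TG libraries, against 4.32, 6.91 and 5.21 CPM in the WT libraries. All TG libraries were above all WT libraries, though TG 2 exceeded the library WT 2 by little. It averaged 14.3 ± 6.4 CPM over the TG libraries and 5.48 ± 1.32 CPM over the WT libraries (SD, n = 3 each), a log2 fold change of 1.38 (SE 0.40), with an adjusted p of 0.242 in edgeR and 0.0204 in DESeq2. It was 0.92 without TG 1, 1.27 without TG 3 and 1.72 without TG 2. The adjusted p in edgeR was 0.543, 0.932 and 0.00594 in these 3 fits. Scn2b, a covalently linked beta subunit, had 2.57, 1.19 and 1.49 CPM in the TG libraries, against 1.03, 0.66 and 1.18 CPM in the WT libraries. These groups were apart by a narrow margin (log2 fold change 0.89, SE 0.43, adjusted p 0.404), and Scn4b had 0 to 5 counts. Scn3b took 48.7%, 24.8% and 41.6% of the summed FPKM of the 4 beta genes in the TG libraries, against 16.3%, 19.5% and 10.8% in the WT libraries.

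**Figure D3:**
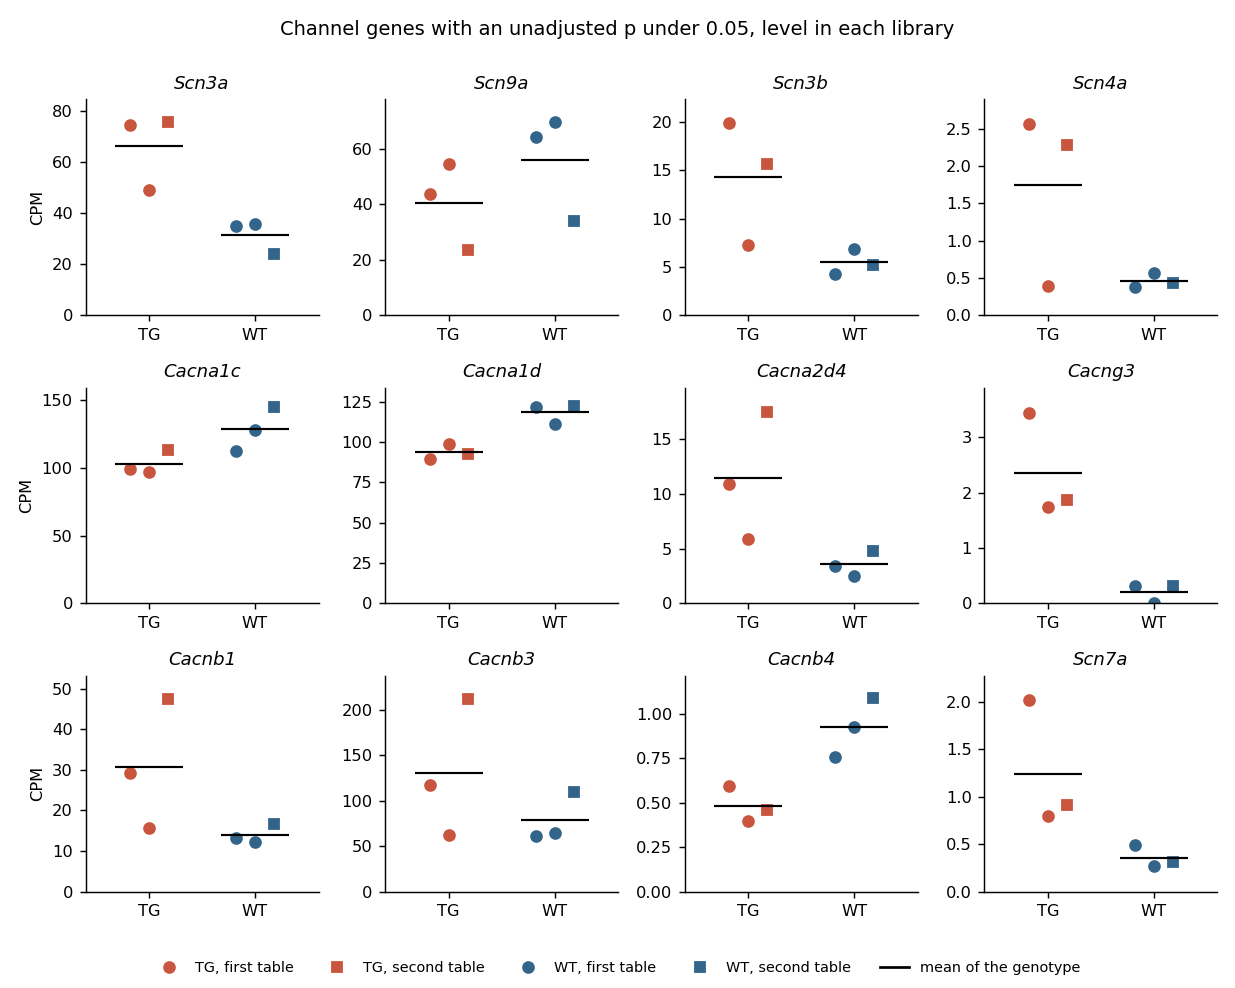
Level in CPM (vertical axis, from 0) in each library of the 12 channel genes with an unadjusted p under 0.05, TG left of WT; circles are libraries of the first table, squares those of the second, and lines the mean of the genotype. Scn3a, Cacna2d4, Cacng3, Scn3b and Scn7a have all TG libraries above all WT libraries, and Cacna1d and Cacnb4 have all below.

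Among the calcium channel pores, both abundant L-type genes were lower in every TG library when set against WT of the same table. Cacna1d (ENSMUSG00000015968, chr14:30039949-30491156, minus strand), the L-type pore that opens at more negative voltages, had 89.6, 98.9 and 92.4 CPM in the TG libraries, against 121.6, 111.2 and 122.1 CPM in the WT libraries. The groups did not overlap, and the spread within each genotype was small. It averaged 93.6 ± 4.76 CPM over the TG libraries and 118.3 ± 6.16 CPM over the WT libraries (SD, n = 3 each), a fold of 0.792 and a log2 fold change of -0.34 (SE 0.13), with an adjusted p of 0.307 in edgeR and 0.24 in DESeq2. Cacna1d shares 589 exonic bases with Chdh on the opposite strand. Cacna1c (ENSMUSG00000051331, chr6:118587240-119196418, minus strand), the L-type pore of heart and smooth muscle that carries much of the calcium current of mouse beta cells, had 99.4, 96.7 and 112.9 CPM in the TG libraries, against 112.5, 127.7 and 145.0 CPM in the WT libraries. TG 3 and the library labelled WT 1 were nearly level, and within each table the TG libraries were lower. Its fold was 0.803 and its log2 fold change -0.32 (SE 0.13), with an adjusted p of 0.331 in edgeR and 0.226 in DESeq2. Without the library labelled WT 1, the log2 fold change was -0.29 for Cacna1d and -0.36 for Cacna1c. Cacna1f, the retinal L-type pore, had 10 to 32 counts in TG and 6 to 14 counts in WT.

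In bulk RNA, fewer cells of a type and less RNA per cell cannot be told apart. The beta-cell marker sums given above differ by genotype in the same direction as both L-type genes, with 1 of the 11 markers above 0 in log2 fold change and median offsets of -2.24, -0.54 and -1.02 for TG 1, TG 2 and TG 3. An offset is log2(CPM + 0.1) in a TG library minus the mean of that value over WT of the same table, and the added 0.1 shrinks the offsets of low genes. The offsets of Cacna1d were -0.38, -0.23 and -0.40, and those of Cacna1c -0.27, -0.31 and -0.36, in TG 1, TG 2 and TG 3. The sum of 8 alpha-cell markers was 48858.3, 30337.0 and 23297.6 CPM in TG and 19003.8, 27468.4 and 25592.2 CPM in WT, with 8 of 8 above 0 in log2 fold change. The sum of 2 PP-cell markers was 21361.2, 10757.6 and 31537.6 CPM in TG and 6445.0, 7032.0 and 4409.1 CPM in WT. The part of these cell types in the channel genes' differences was not tested.

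Cacna1a, the P/Q-type pore of nerve terminals that is also present in beta cells, had 80.1, 99.7 and 201.8 CPM in the TG libraries, against 99.8, 85.4 and 150.9 CPM in the WT libraries. Replicate 3 of each genotype stood above the other libraries, and the genotypes overlapped (log2 fold change 0.11, SE 0.17, adjusted p 0.798). Cacna1b, the N-type pore, had 9.98, 8.57 and 11 CPM in the TG libraries, against 9.88, 10.3 and 19.8 CPM in the WT libraries. Only WT 3 stood apart from the other 5 libraries (log2 fold change -0.36, SE 0.22, adjusted p 0.486). Cacna1e, the R-type pore, which is known in mouse beta cells, had 15, 9 and 39 counts in the TG libraries, against 13, 20 and 12 counts in the WT libraries. The table by genotype interaction of edgeR called 0 channel genes and 0 of 16072 genes (0%). At an unadjusted p under 0.05 it gave 1 channel gene with a higher TG effect in the second table, Cacna1e (interaction log2 2.45, beside 1.53% of all tested genes), and 0 with a lower one (beside 0.747%).

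Of the T-type pores, which open at voltages near rest, Cacna1g and Cacna1i were low in these islets. By FPKM, Cacna1h was above both in every library. Cacna1h had 20.3, 9.09 and 29.3 CPM in the TG libraries, against 6.21, 10.1 and 20.5 CPM in the WT libraries. The groups overlapped, and the second table was higher in both genotypes (log2 fold change 0.74, SE 0.34, adjusted p 0.377). Cacna1g had 5.43, 3.65 and 7.6 CPM in the TG libraries, against 3.24, 3.92 and 3.9 CPM in the WT libraries, with TG 2 inside the WT range (log2 fold change 0.55, SE 0.28, adjusted p 0.421). Cacna1i had 3.27, 0.873 and 2.74 CPM in the TG libraries, against 0.702, 1.45 and 3.02 CPM in the WT libraries, and its spread within each genotype was wider than the difference (log2 fold change 0.55, SE 0.57).

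The 9 calcium alpha1 genes summed to 309.7, 318.2 and 460.1 CPM in the TG libraries, against 355.4, 351.2 and 466.1 CPM in the WT libraries, so the sum differed more by table than by genotype. Per length, Cacna1d took 38.0%, 40.7% and 26.1% of the summed FPKM in TG, against 44.9%, 42.7% and 34.7% in WT. Cacna1a took 27.5%, 33.2% and 46.2% in TG, against 29.8%, 26.5% and 34.7% in WT, and Cacna1c 18.4%, 17.3% and 13.9% in TG, against 18.1%, 21.4% and 18.0% in WT. Cacna1d led the class in both first-table libraries of each genotype. Cacna1a led it in TG 3 and was level with Cacna1d in WT 3, where the FPKM ratio of Cacna1a to Cacna1d was 1. Cacna1c ranked below both in every library.

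Cacna2d4 had the smallest p of the channel genes in edgeR with all libraries and in DESeq2. Without TG 2 the adjusted p of Cacnb1 was smaller, and without the low-count filter those of Cacng3 and Scn3a were. Alpha2delta subunits are extracellular, membrane-anchored proteins that raise the number of calcium channels at the cell surface, and Cacna2d4 is best known from photoreceptors of the retina. Cacna2d4 (ENSMUSG00000041460, chr6:119236526-119352407, plus strand) had 10.9, 5.91 and 17.5 CPM in the TG libraries, against 3.45, 2.46 and 4.77 CPM in the WT libraries. Every TG library was above every WT library. It averaged 11.4 ± 5.8 CPM over the TG libraries and 3.56 ± 1.16 CPM over the WT libraries (SD, n = 3 each), a log2 fold change of 1.63 (SE 0.31), with an adjusted p of 0.199 in edgeR and 0.000204 in DESeq2. It was 1.82 without the library labelled WT 1, 1.51 in the first table alone and 1.87 without TG 2, where the adjusted p in edgeR was 0.00384. The range over 13 alternatives and the fit itself was 1.39 to 1.87 for the log2 fold change and 1.69e-06 to 0.924 for the adjusted p.

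Cacna2d1, the widely expressed alpha2delta subunit and a binding site of gabapentin, led its class in all 6 libraries, with 79.5% to 90.6% of the FPKM of the 4 genes in TG and 84.1% to 94.7% in WT. It had 221.7, 157.3 and 171.8 CPM in the TG libraries, against 205.3, 168.9 and 121.1 CPM in the WT libraries. The groups overlapped (log2 fold change 0.18, SE 0.20, adjusted p 0.719). Cacna2d2 had 6.99, 3.81 and 10.7 CPM in TG, against 3.02, 3.61 and 7.88 CPM in WT, and Cacna2d3 had 2.26, 0.794 and 1.41 CPM in TG, against 0.648, 1.14 and 1.27 CPM in WT. Both overlapped between genotypes over all libraries (log2 fold change 0.61, SE 0.29 and 0.55, SE 0.48). Cacna2d4 ranked second in the class by FPKM in all 3 TG libraries, and Cacna2d2 did so in all 3 WT libraries. The FPKM ratio of Cacna2d4 to Cacna2d1 was 0.0643, 0.0493 and 0.133 in TG, against 0.022, 0.0191 and 0.0516 in WT.

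The cytosolic calcium channel beta subunits bind the pore and carry it to the membrane. Cacnb1 (ENSMUSG00000020882, chr11:98001508-98023034, minus strand), the beta subunit of skeletal muscle channels, had 29.3, 15.6 and 47.5 CPM in the TG libraries, against 13.3, 12.2 and 16.6 CPM in the WT libraries. Each TG library was above WT within its own table, with TG 2 close to it. It averaged 30.8 ± 16 CPM over the TG libraries and 14 ± 2.3 CPM over the WT libraries (SD, n = 3 each), a log2 fold change of 1.05 (SE 0.27), with an adjusted p of 0.222 in edgeR and 0.0153 in DESeq2. It was 1.33 without TG 2, 0.84 without TG 1 and 0.82 without TG 3. The adjusted p in edgeR was 0.00311, 0.528 and 0.932 in these 3 fits. Cacnb1 shares 80 exonic bases with Gm11629 on the opposite strand.

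Cacnb3 (ENSMUSG00000003352, chr15:98632220-98644530, plus strand), known from knockout mice as a beta subunit that restrains calcium oscillations in beta cells, had 117.1, 61.7 and 212.5 CPM in the TG libraries, against 60.7, 64.7 and 109.2 CPM in the WT libraries. TG 1 and TG 3 stood well above the WT libraries of their tables, and TG 2 lay between the first-table WT libraries. The log2 fold change was 0.66 (SE 0.25), with an adjusted p of 0.31 in edgeR and 0.155 in DESeq2. It was 0.41 without TG 1 and 0.92 without TG 2, where the adjusted p in edgeR was 0.00494. Cacnb3 led the beta class in all 6 libraries, with 77.9% to 84.4% of its FPKM in TG and 78.3% to 86.0% in WT. Cacnb2, the main beta subunit of the heart, had 28.1, 27.8 and 26.8 CPM in the TG libraries, against 31.5, 28.5 and 25 CPM in the WT libraries. Its genotypes overlapped and its log2 fold change was -0.04 (SE 0.13). The FPKM ratio of Cacnb3 to Cacnb2 was 17.7, 9.4 and 33.6 in TG, against 8.17, 9.62 and 18.5 in WT. Cacnb4, a beta subunit of the brain, had 17, 10 and 11 counts in the TG libraries, against 14, 21 and 25 counts in the WT libraries, which is 0.397 to 0.591 CPM in TG and 0.756 to 1.09 CPM in WT. The groups did not overlap in CPM (log2 fold change -0.92, SE 0.37, adjusted p 0.34 in edgeR and 0.499 in DESeq2). Its exons share 1433 bases with A430018G15Rik on the opposite strand, which is more than for any other channel gene.

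Most gamma genes encode proteins that traffic AMPA-type glutamate receptors, and Cacng1 is the gamma subunit of skeletal muscle calcium channels. Cacng3 (ENSMUSG00000066189, chr7:122670492-122769393, plus strand), one of the AMPA receptor partners, had the largest fitted fold of the tested channel genes from very few reads. It had 99, 44 and 45 counts in the TG libraries, against 6, 0 and 7 counts in the WT libraries. In CPM these are 3.44, 1.75 and 1.87 in TG and 0.324, 0 and 0.306 in WT, with the groups well apart. The log2 fold change was 3.49 (SE 0.79), with an adjusted p of 0.199 in edgeR and 0.00169 in DESeq2, and it ranged from 2.80 without WT 2 to 4.06 in the first table alone. The adjusted p in edgeR was 0.0265 without TG 2, 0.512 without TG 1 and 0.917 without TG 3. The summed level of 8 neuron markers was 85.8, 25.6 and 104.9 CPM in TG and 35.1, 30.7 and 57.4 CPM in WT, and 6 of the 8, among them Phox2a, Prph and Chat, had under 3 counts in some library. In TG 2 this sum was below the first-table WT sums while Cacng3 was above them.

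Cacng4 led the gamma class by FPKM in all 6 libraries and had 8.07, 3.73 and 7.64 CPM in the TG libraries, against 3.29, 4.36 and 5.3 CPM in the WT libraries, with TG 2 inside the WT range (log2 fold change 0.59, SE 0.33). Cacng2, or stargazin, had 1.53, 0.992 and 1.62 CPM in TG, against 0.648, 1.01 and 0.919 CPM in WT, and TG 2 again lay inside the WT range. Cacng7 had 2.3, 1.03 and 2.86 CPM in TG, against 1.24, 2.77 and 1.71 CPM in WT, and its genotypes overlapped (log2 fold change 0.07, SE 0.48). Cacng1, Cacng5 and Cacng8 were not tested and had 0 to 8 counts in a library.

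Over the 30 tested channel genes, 22 had a fitted log2 fold change above 0 (73.3%, beside 48.1% of all tested genes), and the median was 0.55, beside -0.01 over all tested genes. By library, the median offset of the channel genes was 0.87 in TG 1, -0.06 in TG 2 and 0.51 in TG 3, beside -0.01 over all tested genes in each. Marker lists of several cell types had their smallest median offset in size in TG 2 as well. In TG 1, TG 2 and TG 3 these were -2.24, -0.54 and -1.02 for beta cells, and 2.71, -0.17 and 0.91 for stellate and smooth muscle cells (8 of 11 tested markers above 0 in log2 fold change). They were 1.14, 0.45 and 1.56 for duct cells (6 of 6), 0.98, 0.05 and 0.20 for delta cells (4 of 4), 1.76, 0.58 and 2.89 for PP cells (2 of 2) and 1.66, 0.62 and 1.01 for Schwann cells (5 of 6). Other lists went another way. In TG 1, TG 2 and TG 3 the median offset was 0.92, 0.34 and 0.10 for alpha cells and 1.92, 1.33 and 0.67 for neurons. For both it was thus smallest in size in TG 3. For endothelial cells (-0.02) and myeloid cells (0.25) it was smallest in size in TG 1. The part of all these cells in the channel genes' offsets was not tested. All TG libraries were above WT within their tables for 8 channel genes (26.7%, beside 13.0% of all tested genes), namely Scn3a, Scn3b, Scn2b, Scn7a, Cacna2d2, Cacna2d4, Cacnb1 and Cacng3. They were all below for 5 (16.7%, beside 13.4%), among them Scn9a, Cacna1c, Cacna1d and Cacnb4, a share near that of all tested genes. Over all libraries at once, 6 channel genes had every TG library above every WT library (20.0%, beside 6.96%) and 3 had every TG library below (10.0%, beside 6.42%). These genes had passed the filter discussed above, and their counts and medians are descriptions.

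**Figure D4:**
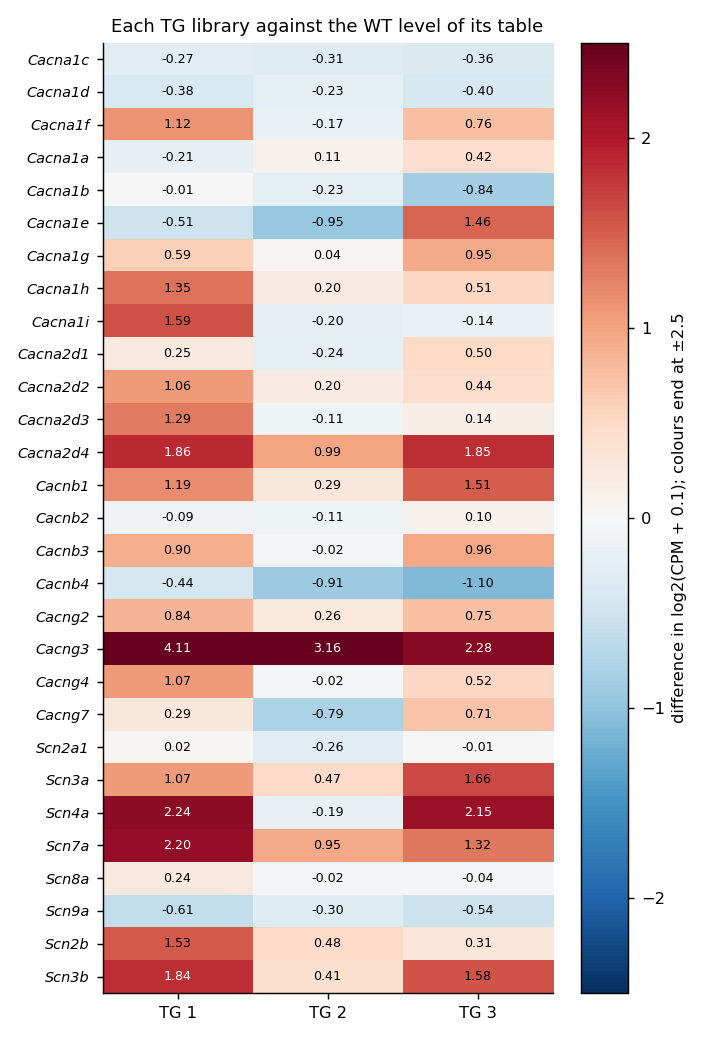
Offset of each TG library from the WT level of its own table, in log2(CPM + 0.1), for tested channel genes in rows and TG 1, TG 2 and TG 3 in columns; red is above and blue below WT. Cacna2d4, Cacng3, Scn3a, Scn3b, Scn7a and Cacnb1 are above 0 in all 3 columns, and Cacna1c, Cacna1d and Scn9a are below 0 in all 3.

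Genes whose proteins bind or regulate these channels were read from lists. Of 27 genes of calcium channel partners, 25 were tested, and 1 was higher and 1 lower in TG at an unadjusted p under 0.05 (the shares of all tested genes being 9.32% and 4.81%), with a median log2 fold change of 0.13. Rem2, a small GTPase that inhibits high-voltage-activated calcium channels, had 30.2, 10.1 and 47 CPM in the TG libraries, against 5.4, 7.04 and 7.4 CPM in the WT libraries. All TG libraries were above all WT libraries, as for 6.96% of all tested genes (log2 fold change 2.02, SE 0.44, adjusted p 0.199 in edgeR and 0.000267 in DESeq2). Rims3, a presynaptic scaffold protein that binds calcium channel beta subunits, had 19.9, 69.6 and 35.1 CPM in the TG libraries, against 99.9, 90.9 and 134.6 CPM in the WT libraries. All TG libraries were below all WT libraries, as for 6.42% of all tested genes, with TG 2 the highest TG library (log2 fold change -1.37, SE 0.44, adjusted p 0.261 in edgeR and 0.0348 in DESeq2). Without TG 2, the log2 fold change was -2.13 for Rims3 and 2.44 for Rem2, with an adjusted p in edgeR of 0.000984 for Rims3 and 0.00103 for Rem2.

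Of 19 genes of sodium channel partners, 17 were tested, with a median log2 fold change of 0.13. At an unadjusted p under 0.05, 3 were higher and 1 lower in TG (beside 9.32% and 4.81% of all tested genes). The 3 higher genes encode fibroblast growth factor homologous factors, proteins that stay in the cell and bind the tail of sodium channel pores. Fgf14 had 17, 5.6 and 9.76 CPM in the TG libraries, against 3.02, 2.73 and 2.01 CPM in the WT libraries (log2 fold change 2.07, SE 0.42, adjusted p 0.199 in edgeR and 0.000306 in DESeq2). Fgf12 had 33.7, 28.1 and 27.6 CPM in the TG libraries, against 20.2, 18.5 and 14.2 CPM in the WT libraries (log2 fold change 0.77, SE 0.15, adjusted p 0.199 in edgeR and 0.00263 in DESeq2). For both, all TG libraries were above all WT libraries, as for 6.96% of all tested genes. Without TG 2 the adjusted p in edgeR was 0.0016 for Fgf14 and 0.0105 for Fgf12. Fgf11 had 3.69, 1.15 and 2.37 CPM in TG, against 0.594, 1.14 and 1.31 CPM in WT, and TG 2 lay level with the library WT 2. The lower gene was Sntb2, a syntrophin, with 15.6, 14 and 9.71 CPM in TG, against 16.8, 22.2 and 17 CPM in WT (log2 fold change -0.53, SE 0.19).

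**Figure D5:**
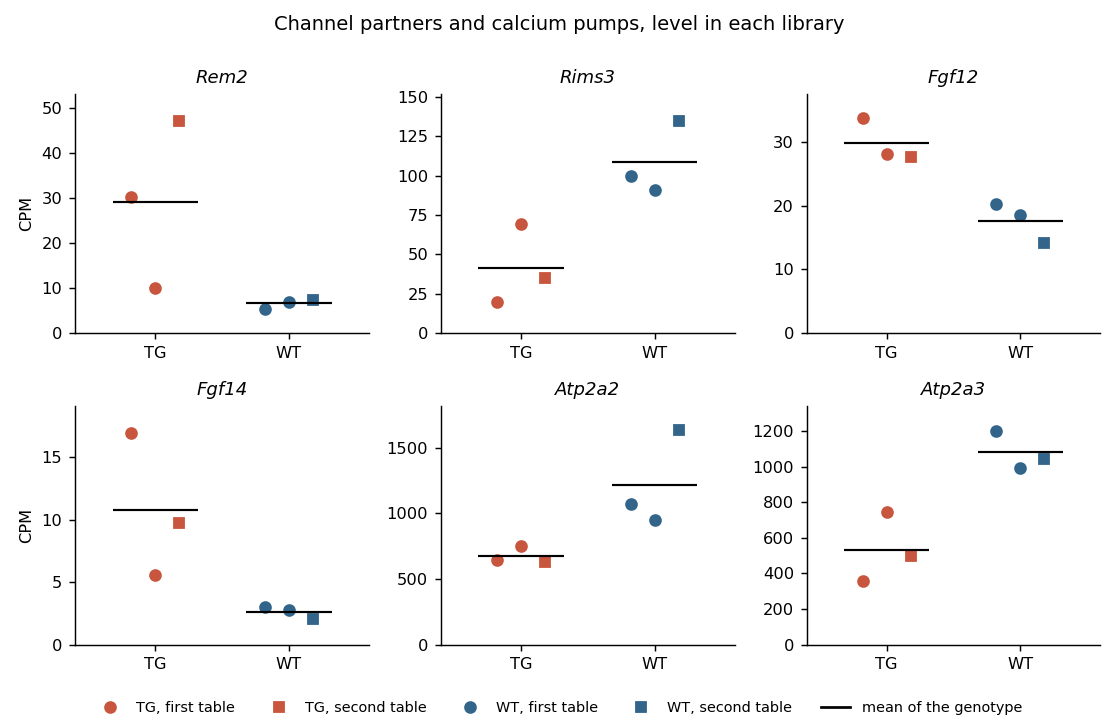
Level in CPM (vertical axis, from 0) in each library of 4 channel partners and of the calcium pumps Atp2a2 and Atp2a3, TG left of WT; circles are libraries of the first table, squares those of the second, and lines the mean of the genotype. Rem2, Fgf12 and Fgf14 have all TG libraries above all WT libraries, and Rims3, Atp2a2 and Atp2a3 have all below.

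Of 27 genes of calcium stores and calcium clearance, 22 were tested, with a median log2 fold change of -0.00. At an unadjusted p under 0.05, 1 was higher and 2 lower in TG (beside 9.32% and 4.81% of all tested genes). Both lower genes encode pumps that load calcium into the endoplasmic reticulum. Atp2a2 had 641.1, 754.9 and 627.9 CPM in the TG libraries, against 1074.2, 947.9 and 1637.9 CPM in the WT libraries (log2 fold change -0.82, SE 0.23, adjusted p 0.238 in edgeR and 0.0209 in DESeq2). Atp2a3 had 357.1, 743.6 and 496.3 CPM in the TG libraries, against 1202.8, 994.4 and 1046.2 CPM in the WT libraries (log2 fold change -1.02, SE 0.29, adjusted p 0.238 in edgeR and 0.0179 in DESeq2). For both pumps, all TG libraries were below all WT libraries, as for 6.42% of all tested genes. Without TG 2 the adjusted p in edgeR was 0.035 for Atp2a2 and 0.00906 for Atp2a3. The higher gene was Slc8a2, a sodium/calcium exchanger of the plasma membrane, with 8.55, 4.05 and 14.9 CPM in TG, against 4.64, 3.52 and 5.21 CPM in WT (log2 fold change 0.93, SE 0.36), and its adjusted p without TG 2 was 0.017.

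The sodium leak channel Nalcn and its partners Unc79, Unc80 and Fam155a were 4 tested genes of 5 listed, with 0 at an unadjusted p under 0.05 and a median log2 fold change of 0.05. Nalcn itself had 42.8, 43.1 and 43.2 CPM in the TG libraries, against 42.2, 36.7 and 36.7 CPM in the WT libraries. Of 11 other channel genes with a voltage-sensor fold, 9 were tested, with a median log2 fold change of 0.17. At an unadjusted p under 0.05, 1 was higher and 1 lower in TG (beside 9.32% and 4.81% of all tested genes). Tpcn1, a cation channel of endosomes and lysosomes, had 28.3, 51.9 and 44.5 CPM in TG, against 63.5, 60.7 and 89.7 CPM in WT (log2 fold change -0.76, SE 0.24). Hcn4, a pacemaker channel, had 20.6, 19.1 and 83.7 CPM in TG, against 17.2, 14.5 and 28 CPM in WT, with TG 3 far above the other libraries (log2 fold change 0.75, SE 0.27). The adjusted p in edgeR was 0.25 for Tpcn1 and 0.295 for Hcn4, and without TG 2 it was 0.00331 for Tpcn1 and 0.0725 for Hcn4.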

How the data were processed

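The deposited raw counts are whole reads per gene, and the authors also deposited FPKM values and a normalized signal. The submitters' processing notes name CASAVA 1.8, HISAT2 and the build GRCm38 (mm10). How reads were counted, with which strand setting and annotation, is not given in the sources used here. The deposited FPKM served only for levels between genes. It was scaled within each table, so shares and ratios within a library were used, and no test was run on it. The deposited signal was not used.

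The joined counts of both tables entered edgeR's quasi-likelihood F-test (version 4.0.16, R 4.3.3) with terms for table and genotype, after filterByExpr by genotype and TMM scaling, with Benjamini-Hochberg adjustment over 16072 genes and a threshold of 0.05. CPM uses TMM-adjusted library sizes. The SE is the absolute log2 fold change over the square root of F. DESeq2 1.42.0, limma-voom (limma 3.58.1), other size factors, no filter, a bias-adjusted quasi-likelihood fit, no table term, the first table alone and leaving out each library were alternatives. The fits were also run on simulated counts with 200 changed genes, the same spread setting for every gene and no difference between the tables. These settings differ from the data, so the run does not show how the fits perform here. Precision is limited by 3 libraries per genotype, and below about 10 counts by counting error.

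Values per library are given for channel genes with a mean of at least 1 CPM or an unadjusted p under 0.05 in edgeR, and for up to 5 genes per list with the smallest such p. Cacna1e and Nalcn are given beyond this rule, after their values were seen. The channel genes, lists, markers and tests were chosen with earlier results of these data known. Some genes of these families and lists are not reported here.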

Additional observations from a re-analysis of the deposited data

How the results depend on the processing

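The count of genes called in TG against WT, 0 by edgeR with all libraries, was 752 by DESeq2 (616 higher, 136 lower) and 1672 without the low-count filter (1300 higher, 372 lower), and leaving out 1 library gave 0 to 2188, the highest without TG 2 (1461 higher, 727 lower). The count of channel genes called, 0, was 5 by DESeq2, 9 without the filter and 0 to 9 when 1 library was left out, the highest again without TG 2. Without the filter, Cacna1h joined the 8 channel genes called higher without TG 2. The table by genotype interaction, 0 genes, gave 137 without the filter (67 higher, 70 lower) and 0 to 9 when 1 library was left out (9 without TG 1, 3 without WT 2), with 0 channel genes in each. The cause of these changes was not tested. Both counts called in TG against WT were 0 with RLE size factors, limma-voom, the bias-adjusted fit, no table term and the first table alone.

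Of 364 log2 fold changes of 28 channel genes under 13 alternatives, 328 kept their direction and side of the threshold, 23 kept their direction and passed it, and 13 turned direction. In the first table alone, Cacna1a was at -0.04 and Cacng7 at -0.27. When 1 library was left out, the range was -0.05 to 0.24 for Cacna1a, -0.28 to 0.57 for Cacng7, -0.23 to 0.93 for Cacna1i, -0.03 to 0.83 for Cacna2d3, -0.11 to 0.04 for Cacnb2, -0.18 to 0.03 for Scn2a1 and -0.03 to 0.12 for Scn8a. Detection in every library covered 30 channel genes at 3 counts and 25 at 10 counts. No paired analysis was possible because the replicate numbers only name the libraries. A fit that leaves 1 library of a genotype in a table assumes that it varies like the others.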

Other observations

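Several channel genes differed between the tables in both genotypes. Cacna1a had 201.8 CPM in TG 3, against 80.1 and 99.7 CPM in TG 1 and TG 2, and 150.9 CPM in WT 3, against 99.8 and 85.4 CPM in the first-table WT libraries. Cacnb3 had 212.5 CPM in TG 3, against 117.1 and 61.7 CPM in TG 1 and TG 2, and 109.2 CPM in WT 3, against 60.7 and 64.7 CPM in the first-table WT libraries. Scn9a went the other way, with 23.4 CPM in TG 3, against 43.8 and 54.3 CPM in TG 1 and TG 2, and 33.9 CPM in WT 3, against 64.3 and 69.6 CPM in the first-table WT libraries. The table also parts the libraries by Xist, and the sum of 8 acinar-cell markers was 259.7 CPM in TG 3 and 118.9 CPM in WT 3, against 3146.8 and 4317.6 CPM in TG 1 and TG 2 and 2777.8 and 6150.5 CPM in the first-table WT libraries. With 1 library of each genotype in the second table, the sources of this split cannot be told apart.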
